A study of Sus scrofa with 6 samples.

Results

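The genes described here encode the cholesterol synthesis pathway and its sterol-sensing control by SREBP, the sterol regulatory element binding proteins, in jejunum of weaned Large WhitexLandrace piglets. Of 30 genes named for this set, 29 were found among the 24358 genes of the deposited table: 26 by their gene name, and IDI1, EBP and INSIG2 through the Ensembl identifiers that the table gives in place of a name. LSS, lanosterol synthase, was not analysed here. All 29 reached the expression filter, which asked for 1 FPKM or more (fragments scaled for gene length and library size) in 3 or more of the 6 libraries. Bulk RNA was sequenced from jejunum of 3 transported and 3 untransported piglet samples, and the title of the study speaks of a short distance. Every sample is labelled healthy, and no agent, genotype or age is given. The labels do not say that the 3 samples of a group are 3 animals, and p-values here rest on a spread between samples that may be technical. In bulk tissue, fewer cells of a type and less RNA per cell cannot be told apart.

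Cholesterol is built from acetyl-CoA through mevalonate and isoprenoid intermediates to squalene, which is then closed into a ring and trimmed to cholesterol. When sterol in the endoplasmic reticulum is low, the escort protein SCAP carries SREBP to the Golgi, where it is cut into a transcription factor that switches on the pathway; when sterol is plentiful, INSIG proteins hold SCAP back. The small intestine both makes cholesterol and takes it up from food and bile, and the enterocyte esterifies part of it for export in chylomicrons.

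The libraries held 48208451 to 53739246 counts, and the members' counts ran from 228 (TM7SF2 in control 3) to 17440 (SREBF2 in transport 3), so that the counting error was at most 6.62%. Transport 3 stood apart. Its summed FPKM of 7 B cell markers was 720, against 9.34 and 13.4 in the other transport libraries and 7.67 to 9.79 in controls, and its summed FPKM of 5 ileum markers was 6950, against 101 and 125 in the other transport libraries and 93.0 to 204 in controls. FABP6, the ileal bile acid binding protein, made up 6840 FPKM of that sum, and GATA4, a factor of the proximal small intestine, was at 0.906 FPKM there and between 44.4 and 59.5 FPKM in the other 5 libraries. Of the ileum markers, SLC10A2, CUBN and SLC51A also had their highest value in transport 3, SLC51A by little (31.4 FPKM against 29.5 in control 2), and SLC51B had its lowest. Of 6 proximal gut markers, 5 had their lowest value there, and CYBRD1, at 52.2 FPKM, was within the range of the others. Most of these markers in transport 3 go against the labelled jejunum, and the fold changes of some members are also given without it. Control 2 held little smooth muscle RNA, with 73.3 summed FPKM over 8 markers against 1040 to 2890 in the other 5 libraries.

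Most enzymes of cholesterol synthesis had lower values after transport, but no member passed the test over all genes. In edgeR's quasi-likelihood test 2 of 12012 genes (0.0167%) passed an adjusted p of 0.05, and 0 of the 29 members did. DESeq2 and limma also passed 0 members. The lowest adjusted p of a member was 0.890 in edgeR, a value shared by 10 of them, and 0.179 in DESeq2. Log2 fold changes of transport over control were below 0 in 18 of 29 members (62.1%), counting DHCR7 at 0.00 to 2 decimals, against 43.1% of all genes tested, and their median was -0.25, against 0.07 over all genes. At an unadjusted p under 0.05, 3 members were lower (10.3%), against 1.61% of all genes tested, and 2 were higher (6.90%), against 3.52% of all genes. By FPKM, 5 members (17.2%) were lower in every transport library than in every control library, against 4.19% of all genes. In this way 1 was higher (3.45%), against 6.93% of all genes. By scaled counts the 5 were 4 in DESeq2, without scaling beyond the library total and without mitochondrially encoded genes. The unadjusted count for higher members was 0 with the replicate number as a block, and 0 without control 2 or without control 3. Of the 12012 genes 314, 143 and 203 were higher in these fits, against 423 in the main fit. The count for lower members was 1 without control 3, where 96 genes in all were lower, against 193 in the main fit. By scaled counts, the count of higher members without overlap was 3 without control 2 and 2 without any 1 transport library. Fewer libraries overlap less readily for any gene, and the share of all genes was not computed for these settings. The median of -0.25 was 0.01 without transport 1, -0.04 without control 1, -0.12 without control 2 and -0.45 without transport 2. It was -0.16 without transport 3, and -0.11 and -0.14 in limma with pseudocounts of 1 and 0.1. Without both transport 3 and control 2 it was -0.12, and 16 of 29 members were below 0. In these settings the median over all genes ran from 0.0 to 0.11.

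**Figure D1:**
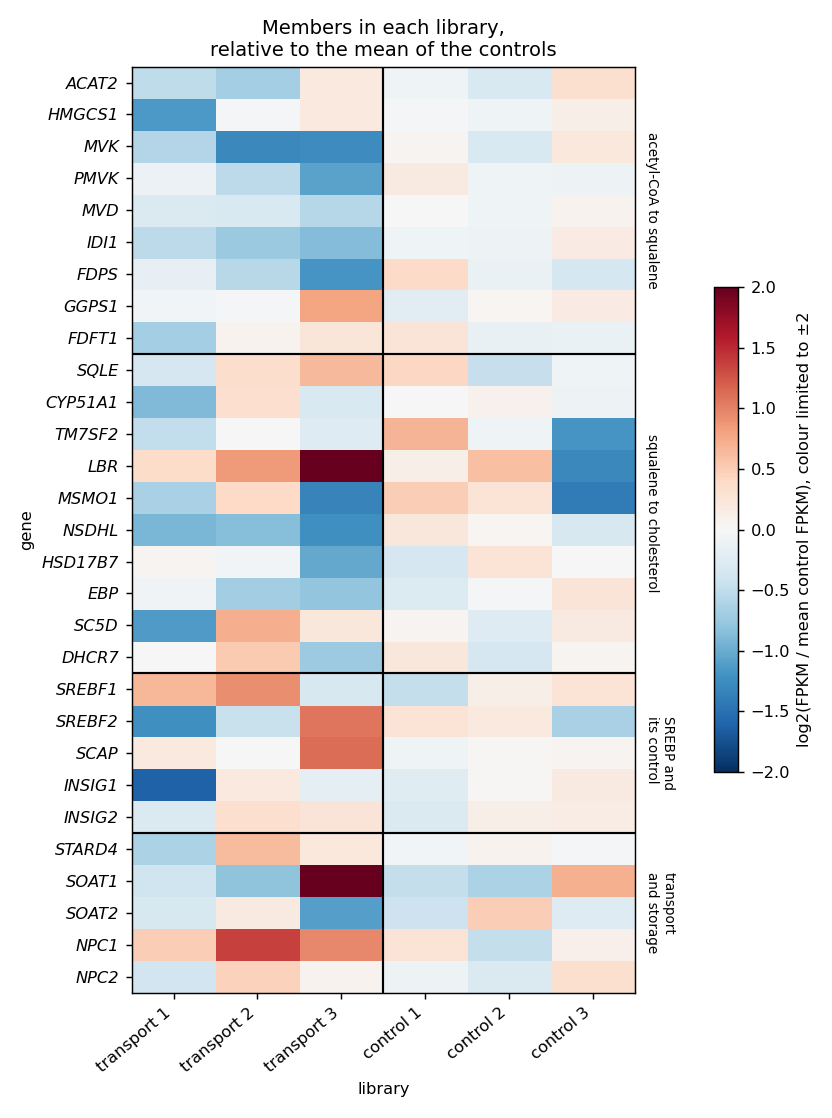
Each cell is the log2 ratio of a gene's FPKM in 1 library to the mean FPKM of the 3 controls, with the transport libraries on the left and genes ordered by role; colours stop at ±2. MVK, PMVK, MVD, IDI1 and NSDHL are below every control in all 3 transport libraries, HMGCS1 and INSIG1 are lowest in transport 1, and LBR and SOAT1 are darkest red in transport 3.

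**Figure D2:**
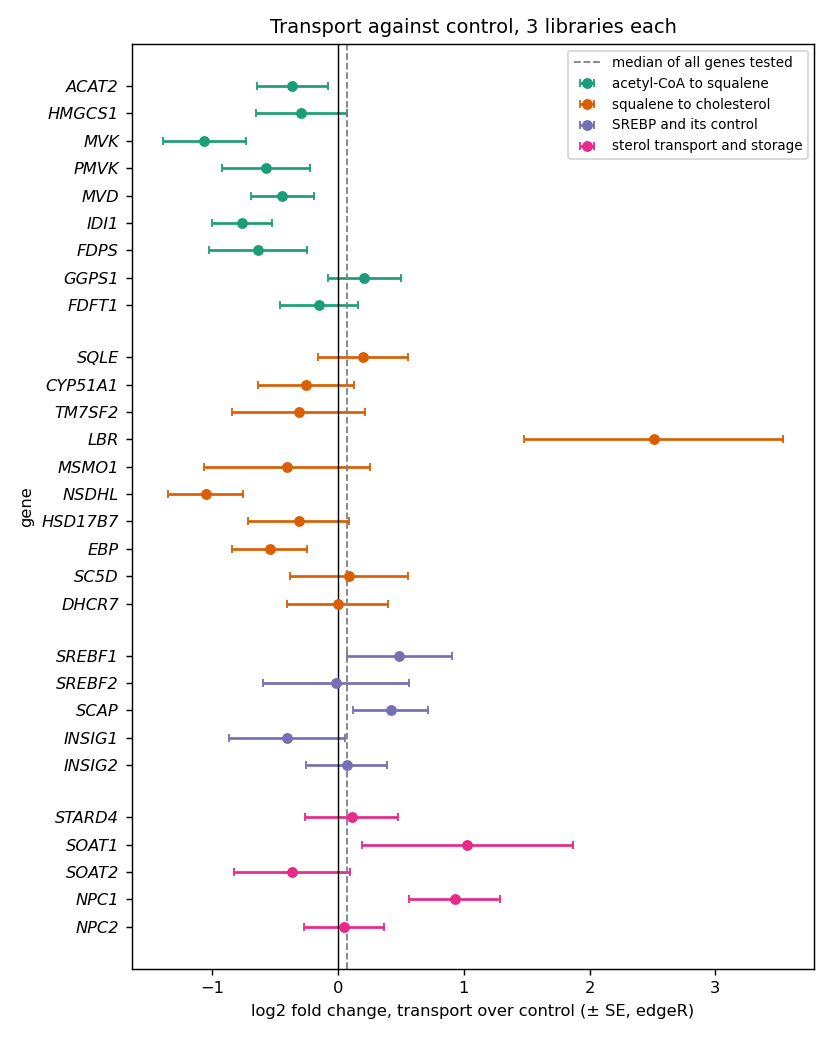
Points are edgeR log2 fold changes of transport over control for the 29 genes, with standard errors, and the dashed line is the median of all genes tested (0.07). In the group from acetyl-CoA to squalene 8 of 9 points lie below 0, and LBR has the widest error bar of the set.

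The steps from acetyl-CoA to squalene were the group with the most even direction. Of its 9 enzymes 8 had lower values after transport, with a median log2 fold change of -0.44, and GGPS1, which makes geranylgeranyl diphosphate on a side branch, had 0.21. Their summed FPKM was 132, 129 and 126 in transports 1, 2 and 3, against 187, 163 and 181 in controls 1, 2 and 3. The sums did not overlap, and the mean was 27.2% lower after transport. With any 1 of the 9 left out, the sums did not overlap, and the difference of the means was between 22.1% (without IDI1) and 29.1% (without FDFT1). This leaves out genes and not samples, and how often other sums of 9 genes lack overlap was not computed. The group had 8 of 9 members below 0 without both transport 3 and control 2 as well, with a median of -0.41. Without transport 1 there were 6 of 9, with a median of -0.49.

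MVK, mevalonate kinase, lies on the minus strand of chromosome 14 at 41333924 to 41357320. It had 3.79, 2.34 and 2.40 FPKM in transports 1 to 3, against 5.92, 4.60 and 6.60 FPKM in controls 1 to 3. The groups did not overlap, and the mean was 2.85 ± 0.821 FPKM after transport and 5.71 ± 1.02 FPKM in controls (SD, n = 3 each). In edgeR the log2 fold change was -1.06 (SE 0.33, adjusted p = 0.890), and MVK was among the 3 members that were lower at an unadjusted p under 0.05. PMVK, which adds the next phosphate, had 16.6, 12.5 and 8.52 FPKM in the transport libraries, against 20.3, 16.9 and 16.7 FPKM in controls. By FPKM transport 1 was just below the lowest control there, and by count over the library total it was just above control 3. MVD, the decarboxylase that forms isopentenyl diphosphate, had 19.0, 18.8 and 15.6 FPKM in transport libraries, against 23.4, 21.8 and 24.5 FPKM in controls. Neither PMVK (log2 fold change -0.57, SE 0.35) nor MVD (-0.44, SE 0.25) reached an unadjusted p of 0.05 in edgeR.

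IDI1, the isomerase that interconverts both isoprenoid building blocks, is on the plus strand of chromosome 10 at 68534517 to 68539280. It had 37.9, 32.5 and 30 FPKM in transports 1 to 3, against 51.5, 50.7 and 61.3 FPKM in controls 1 to 3. All 3 transport libraries were below the lowest control, and the log2 fold change was -0.76 (SE 0.24, edgeR adjusted p = 0.890). FDPS, farnesyl diphosphate synthase, had 26.2, 20.1 and 12.9 FPKM in transport libraries, against 38.4, 26.8 and 23.0 FPKM in controls, with transport 1 above control 3. The gene overlaps RUSC1 on the same strand over 11795 bases, so its counts may be shared. ACAT2, the cytosolic thiolase that joins the first acetyl-CoA units, had a log2 fold change of -0.36 (SE 0.28), and FDFT1, squalene synthase, of -0.15 (SE 0.31), both with overlap between the groups. Without transport 3 the log2 fold change was -0.61 for ACAT2, -0.28 for FDFT1, -0.34 for PMVK, -0.39 for FDPS and -0.07 for GGPS1. Across the 16 other ways of processing the data, IDI1 had an unadjusted p under 0.05 in 15 (0.0643 without control 3) and MVK in 13 of the 15 that tested it (0.0582 without control 3 and 0.0528 without control 1).

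From squalene to cholesterol the enzymes went in both directions. Of the 10 measured, 7 had a log2 fold change below 0, DHCR7 among them at 0.00 to 2 decimals. The group had a median log2 fold change of -0.28, which was -0.17 in either limma fit, 0.05 without control 1, -0.10 without transport 1, -0.15 without control 2, -0.06 without transport 3, -0.48 without transport 2 and -0.02 without both transport 3 and control 2. Their summed FPKM was 93.5, 148 and 132 in transports 1 to 3, against 144, 135 and 104 in controls 1 to 3, so that the groups overlapped. The gene of this group without overlap was NSDHL, the dehydrogenase that takes part in removing methyl groups from the sterol ring, encoded on the plus strand of the X chromosome at 123906152 to 123921939. NSDHL had 5.79, 6.03 and 4.66 FPKM in transports 1 to 3, against 12.8, 11.2 and 8.71 FPKM in controls 1 to 3. All 3 transport libraries were below the lowest control (log2 fold change -1.05, SE 0.30, edgeR adjusted p = 0.890). Of the members it had the lowest p in edgeR, and its unadjusted p stayed under 0.05 in all 16 alternatives, between 0.00215 and 0.0446, while the adjusted p ran from 0.181 to 1.0.

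EBP, the sterol isomerase encoded elsewhere on the X chromosome, had 13.7, 8.83 and 8.26 FPKM in transport libraries, against 11.8, 14.2 and 17.1 FPKM in controls, with transport 1 above control 1 (log2 fold change -0.54, SE 0.30, edgeR adjusted p = 0.890). MSMO1, the monooxygenase that acts before NSDHL, varied within the groups: it had 20.5, 42.5 and 12.7 FPKM after transport, against 45.4, 38.9 and 12.2 FPKM in controls. HSD17B7, the ketosteroid reductase of the same step, had 14.6, 13.5 and 6.87 FPKM after transport, against 11, 16.9 and 14 FPKM in controls. With transport 3 left out, the log2 fold change went from -0.40 to -0.08 for MSMO1 and from -0.31 to -0.04 for HSD17B7. The rate-controlling SQLE, squalene epoxidase, had 4.02, 6.47 and 8.02 FPKM in transport libraries, against 6.76, 3.72 and 4.80 FPKM in controls, and overlapped. DHCR7, the reductase that yields cholesterol, had 10.7, 15.2 and 6.34 FPKM in transport libraries, against 12.3, 8.32 and 11 FPKM in controls, with a log2 fold change of 0.00 (SE 0.40), which was 0.28 without transport 3.

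**Figure D3:**
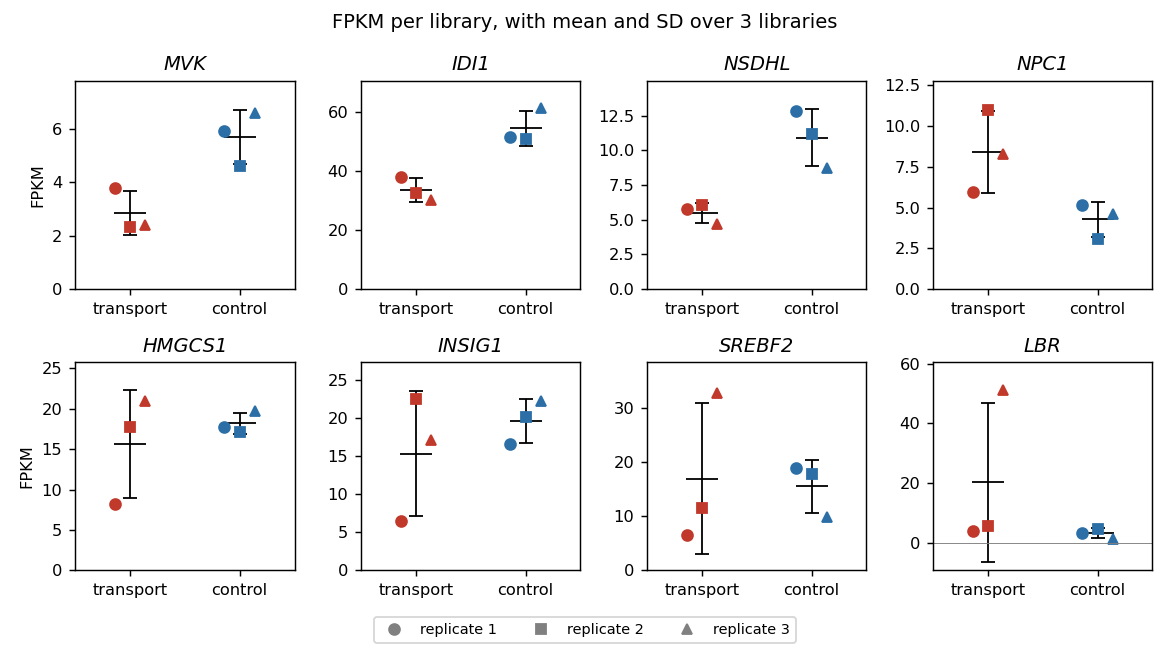
FPKM of 8 genes per library, transport in red and control in blue, with marker shape for the replicate number and black bars for mean and SD over 3 libraries. MVK, IDI1 and NSDHL are lower and NPC1 higher in every transport library than in every control, while transport 1 is the low point of HMGCS1 and INSIG1 and transport 3 the high point of SREBF2 and LBR.

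Some members were lowest in transport 1. They were picked out after their values were seen and have no test. INSIG1, which retains SCAP and is itself an SREBP target, had 6.44 FPKM in transport 1, 22.5 in transport 2 and 17.1 in transport 3, against 16.6, 20.1 and 22.3 FPKM in controls 1 to 3. HMGCS1, the HMG-CoA synthase of the cytosol, had 8.19, 17.7 and 21.0 FPKM in the transport libraries, against 17.8, 17.1 and 19.7 FPKM in controls. In both genes transport 1 was far below the other 5 libraries, while transport 2 was within or near the control range. CYP51A1, the lanosterol demethylase, had 13, 30.4 and 19.4 FPKM in transports 1 to 3, against 24.3, 25.4 and 22.5 FPKM in controls. SC5D, the sterol desaturase, had 4.15, 15.1 and 10.6 FPKM in transports 1 to 3, against 9.41, 7.58 and 10.2 FPKM in controls. FDFT1 had 8.87, 14.8 and 16.7 FPKM in transports 1 to 3, against 16.8, 12.8 and 12.9 FPKM in controls. STARD4, a carrier of free sterol between membranes, and SREBF2 also had their lowest value of the 6 libraries in transport 1, as did NPC2. In all, transport 1 was the lowest library for 8 of 29 members and the highest for 0. Transport 2 was the lowest for 3 and the highest for 9, and transport 3 was the lowest for 9 and the highest for 7. Those lowest in transport 3 were PMVK, MVD, IDI1, FDPS, NSDHL, EBP, HSD17B7, DHCR7 and SOAT2. Transport 1 also had the highest mitochondrial share of counts, 11.6%, against 5.50% and 6.67% in the other transport libraries and 7.67% to 10.9% in controls; its part in these values was not tested.

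The regulators themselves showed no common direction. SREBF2, the SREBP of sterol synthesis, had 6.65, 11.5 and 32.9 FPKM in transports 1, 2 and 3, against 18.9, 17.9 and 9.93 FPKM in controls 1 to 3. Its log2 fold change of -0.01 (SE 0.58) was -0.82 without transport 3 and 0.36 without transport 1. SREBF1, the SREBP of fatty acid synthesis, had 13.2, 15.7 and 6.60 FPKM in transport libraries, against 5.93, 8.90 and 9.99 FPKM in controls. Transports 1 and 2 were above every control and transport 3 was within the control range (log2 fold change 0.49, SE 0.42, edgeR adjusted p = 0.902). Without transport 3 the log2 fold change of SREBF1 was 0.78, with an unadjusted p under 0.05. The ratio of SREBF1 to SREBF2 FPKM was 1.98, 1.37 and 0.20 in transports 1 to 3, against 0.315, 0.496 and 1.01 in controls. SCAP had 11.3, 9.86 and 21.5 FPKM after transport, against 9.30, 10.1 and 10.3 FPKM in controls. Its log2 fold change of 0.42 (SE 0.30) was 0.06 without transport 3. INSIG2, a second protein that retains SCAP, was the steadiest member, with 3.17, 4.87 and 4.56 FPKM after transport, against 3.15, 4.14 and 4.26 FPKM in controls. The ratio of INSIG1 to INSIG2 was 2.03 in transport 1, 4.62 in transport 2 and 3.75 in transport 3, against 5.28, 4.85 and 5.23 in controls.

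Among the genes of sterol movement and storage, NPC1 had higher values after transport. NPC1, the lysosomal membrane protein that releases cholesterol from endocytosed lipoprotein, lies on the minus strand of chromosome 6 at 108403129 to 108450486. It had 5.98, 11 and 8.28 FPKM in transports 1 to 3, against 5.18, 3.07 and 4.58 FPKM in controls 1 to 3. The groups did not overlap, and the mean was 8.43 ± 2.53 FPKM after transport and 4.28 ± 1.09 FPKM in controls (SD, n = 3 each). The log2 fold change was 0.93 (SE 0.36, edgeR adjusted p = 0.890), and 0.61 with transport 2 left out. The unadjusted p was under 0.05 in all 6 libraries together, but not with the replicate block (0.0816) or without transport 2 (0.117), control 2 (0.119) or control 3 (0.0897). With transport 3 left out the log2 fold change was 0.99 for NPC1, -0.93 for MVK, -0.66 for IDI1 and -0.92 for NSDHL. NPC2, the soluble partner that hands cholesterol to NPC1, had 33.1, 59.7 and 45.1 FPKM in transport libraries, against 40.2, 35.3 and 53.9 FPKM in controls, with overlap. The ratio of NPC2 to NPC1 was 5.54, 5.41 and 5.44 after transport, against 7.76, 11.5 and 11.8 in controls, without overlap. Of 5 ratios of paired genes looked at, 3 had groups that did not overlap: this one, INSIG1 to INSIG2, and TM7SF2 to LBR. The last was 0.776, 0.791 and 0.0716 after transport, against 2.11, 0.879 and 1.53 in controls. How often ratios of other gene pairs lack overlap was not computed, and NPC1 had no overlap by itself.

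The enzymes that esterify cholesterol had opposite extremes in transport 3. SOAT2, the acyltransferase of enterocytes and liver, had 16.5, 23.1 and 9.58 FPKM in transports 1 to 3, against 15.4, 28.9 and 17.1 FPKM in controls. Its log2 fold change of -0.36 (SE 0.46) was -0.09 without transport 3. SOAT1, the form found in most other cells, had 1.63, 1.23 and 11.5 FPKM in transports 1 to 3, against 1.54, 1.38 and 3.52 FPKM in controls. Transports 1 and 2 were within or just below the control range, and the log2 fold change of 1.03 (SE 0.84) was -0.59 without transport 3. SOAT2 was 10.1 and 18.8 times SOAT1 in transports 1 and 2 and 0.832 times SOAT1 in transport 3, against 4.85 to 20.9 times in controls.

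LBR had the largest fold change of the set, and it rested on transport 3. LBR encodes the lamin B receptor of the inner nuclear membrane, which also acts as a sterol reductase. It had 4.02, 5.61 and 51.1 FPKM in transports 1 to 3, against 3.35, 4.70 and 1.27 FPKM in controls 1 to 3. In edgeR the log2 fold change was 2.51 (SE 1.03, adjusted p = 0.890), and 0.57 without transport 3, where the unadjusted p, under 0.05 with it, was 0.381. With transport 3 kept, the unadjusted p was also over 0.05 with the replicate block (0.236, log2 fold change 1.53), in both limma fits and without any 1 control library (0.0528 to 0.112), and it was under 0.05 in 8 of 16 alternatives. TM7SF2, the reductase of the endoplasmic reticulum for the same reaction, had 3.12, 4.44 and 3.66 FPKM in transport libraries, against 7.08, 4.13 and 1.94 FPKM in controls. LBR, SOAT1, SREBF2, SCAP, GGPS1, SQLE and HMGCS1, 7 of the 29 members, had their highest value in transport 3, the library with 720 summed FPKM of B cell markers; the other 5 libraries had 7.67 to 13.4, and PAX5 and MS4A1 were each under 1 FPKM in them. Dividing cell markers summed to 546 FPKM in transport 3, against 74.8 and 127 in the other transport libraries and 86.2 to 201 in controls. The part of B cell, dividing cell or ileal RNA in the values of transport 3 was not tested.

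**Figure D4:**
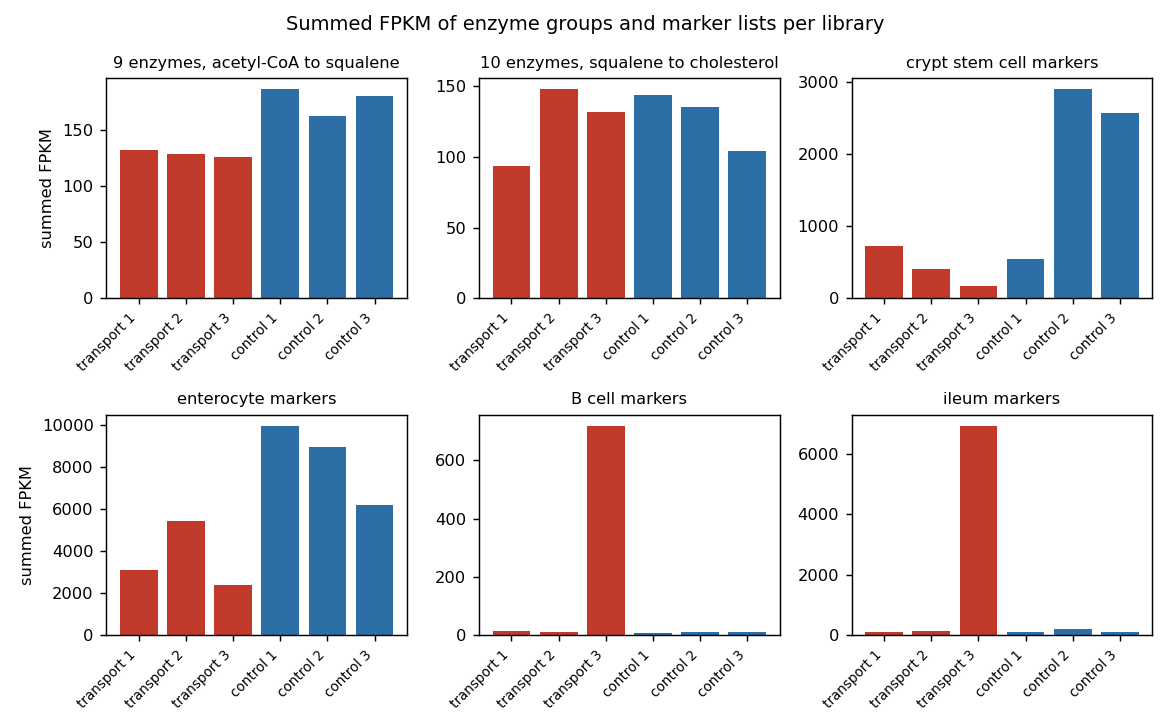
Bars give the summed FPKM per library of both enzyme groups and of 4 marker lists, transport in red and control in blue, on axes that start at 0. The sum of the 9 enzymes from acetyl-CoA to squalene is lower in every transport library (126 to 132 against 163 to 187). So is the sum of the enterocyte markers, although 5 of the 11 had a log2 fold change above 0. The B cell and ileum sums are high in transport 3.

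Marker sums of cell types went in both directions, and those of crypt stem and goblet cells overlapped between the groups. The summed FPKM of 11 enterocyte markers was 2370 to 5430 after transport and 6220 to 9990 in controls. These sums did not overlap, although 5 of the 11 had a log2 fold change above 0. Of the 11, 4 (36.4%) were lower without overlap and 1 (9.09%) was higher, against 4.19% and 6.93% of all genes. The 8 crypt stem cell markers summed to 168 to 723 FPKM after transport and 539 to 2900 FPKM in controls. OLFM4 made up 417 of the 539 FPKM in control 1 and 2810 of the 2900 in control 2. All 7 that were tested had a log2 fold change below 0, and 2 (28.6%) were lower without overlap. In edgeR 3 enterocyte markers (27.3%) and 2 crypt markers (28.6%) were lower at an unadjusted p under 0.05, against 1.61% of all genes. The 12 T and NK cell markers summed to 117 to 184 FPKM after transport and 58.1 to 71.2 FPKM in controls, with all 12 above 0. In edgeR 9 (75.0%) had an unadjusted p under 0.05 and 0 an adjusted one. Of all genes tested, 3.52% were higher at that unadjusted threshold. The 6 goblet cell markers summed to 180 to 723 FPKM after transport and 283 to 823 FPKM in controls, and all 6 had a log2 fold change below 0. What part these shifts have in the lower enzyme values was not tested.

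The members covered a wide range of levels. By mean FPKM, NPC2 (46.0) and IDI1 (33.5) were the highest after transport, and IDI1 (54.5) and NPC2 (43.1) in controls, with MSMO1 next in both groups (25.2 after transport, 32.2 in controls). The lowest were MVK (2.85), TM7SF2 (3.74) and INSIG2 (4.20) after transport, and SOAT1 (2.15), LBR (3.11) and INSIG2 (3.85) in controls. Between the highest and the lowest library a member differed by a median of 2.47-fold. INSIG2 (1.55-fold), MVD (1.57-fold) and NPC2 (1.80-fold) varied least, and LBR (40.3-fold), SOAT1 (9.37-fold) and SREBF2 (4.95-fold) varied most, each with its highest value in transport 3. For 13 members another gene of the table overlaps, and for ACAT2, FDPS, FDFT1, TM7SF2, DHCR7 and SREBF1 the overlap is 1000 or more bases with a gene of at least 1000 counts in its highest library. The use of strand in counting is not given in the sources used here, so reads of such pairs cannot be told apart.

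Genes outside the set that belong to the same biology had values in both directions. Among 13 tested SREBP targets, mostly of fatty acid synthesis, 8 (61.5%) had a log2 fold change below 0, against 43.1% of all genes tested. Their median was -0.04, against 0.07 over all genes. ACACA, acetyl-CoA carboxylase, had 2.14, 2.32 and 3.0 FPKM in transport libraries, against 4.88, 3.65 and 4.55 FPKM in controls (log2 fold change -0.88, SE 0.25, edgeR adjusted p = 0.890). ELOVL6, a fatty acid elongase, had 4.20, 4.82 and 1.43 FPKM in transport libraries, against 8.57, 7.98 and 11.4 FPKM in controls (log2 fold change -1.43, SE 0.50, edgeR adjusted p = 0.890). Both had an unadjusted p under 0.05 and were lower in every transport library than in every control, as was TMEM97, while GPAM was higher in this way. FASN, fatty acid synthase, overlapped, with 15.1, 12.1 and 19.6 FPKM after transport and 16.2, 19.8 and 25.3 FPKM in controls.

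Of 17 tested genes of the liver X receptors, sterol efflux and uptake, 13 (76.5%) had a log2 fold change above 0. Among all genes tested the share was 56.9%. The median of the list was 0.23, against 0.07 over all genes. ABCG1, a sterol exporter, had 1.30, 1.35 and 1.81 FPKM in transport libraries, against 0.693, 0.371 and 0.574 FPKM in controls (log2 fold change 1.38, SE 0.35, edgeR adjusted p = 0.890). NR1H2, which encodes liver X receptor beta, had 25.3, 34.2 and 32.6 FPKM after transport and 21.7, 20.0 and 21.3 FPKM in controls, also without overlap. GRAMD1A overlapped, with 6.86, 5.17 and 22.3 FPKM in transports 1 to 3 and 5.97, 3.24 and 4.99 FPKM in controls (log2 fold change 1.15, SE 0.56). ABCG1 was the gene of that list with an unadjusted p under 0.05. In the lists of SREBP cleavage and sterol-sensed protein degradation (3 of 9 below 0), of isoprenoid use (8 of 10 below 0, median -0.22) and of oxysterol and bile acid enzymes (1 of 4 below 0), 0 genes had an unadjusted p under 0.05 in edgeR or lay outside the range of the other group. None of the genes of these 5 lists passed the adjusted threshold in edgeR.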

How the data were processed

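RNA sequencing of 6 jejunum libraries was used, 3 after transport and 3 without; per the labels' protocols, RNA was extracted with Trizol and libraries followed Illumina protocols. The deposited table gives, per the file headers, a whole-number count and an FPKM value for each gene and library; an entry of 0 counts carries an FPKM of 0.0001. Which aligner, counting tool, genome build and strand setting were used is not given in the sources used here. Coordinates are printed as the table has them. Columns for transport carry another prefix than the labels and were matched by group and number.

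Counts were tested with edgeR 4.0.16 (R 4.3.3), TMM scaling and group as the factor, over the 12012 genes that reached 1 FPKM in 3 or more libraries, with Benjamini-Hochberg adjustment over all of them. Standard errors come from the quasi-likelihood F statistic. The procedure was tried on simulated counts that varied less between libraries than these data. That trial does not show which changes the test can find here. The alternatives tried were DESeq2 1.42.0, limma 3.58.1 on log2(FPKM + 1) and log2(FPKM + 0.1), other scalings and filters, a replicate block and libraries left out; matching by gene name alone (26 members) was added after the data were seen. The blocked fit, planned beforehand, took the replicate numbers as pairs, although the labels do not say what they stand for. Deviations from the group means correlated across genes between libraries of equal number with r = 0.218, 0.111 and 0.186. Between libraries of unequal number r ran from -0.26 to 0.101. Deviations within a group cancel out, so these values are not independent and do not establish a pairing.

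All 29 members were named whatever their result; of the other lists, at most 3 genes of smallest p each were named; TMEM97, GPAM and the genes low in transport 1 were singled out after their values were seen. Members and lists were chosen with earlier results of these data known. Promoter sequences were planned and were not used here. Some other pathway genes of the table are not reported here.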

Additional observations from a re-analysis of the deposited data

How the results depend on the processing

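Under all 16 alternatives 0 members passed the adjusted threshold, with adjusted p-values of at least 0.179. All genes passing numbered 50 in DESeq2, 1 among genes with a mean of 5 FPKM or more, 1 and 5 with limma at pseudocounts of 1 and 0.1, 1 without both control 2 and transport 3, and 0 to 3 with 1 library left out. Members higher at an unadjusted p under 0.05 numbered 1 with either limma fit or without both libraries. They numbered 0 with the replicate block and 0 to 2 with 1 library left out, where all higher genes numbered 143 to 769. Lower members numbered 1 to 4 then, and all lower genes 96 to 333. By scaled counts, 4 to 7 members were then lower without overlap and 1 to 3 higher (7 and 5 without both libraries). The block changed no other call. With 1 library left out, the median of all members ran from -0.45 to 0.01, of the steps after squalene from -0.48 to 0.05 and of sterol transport and storage from -0.26 to 0.39; the median of SREBP and its control was -0.01 with upper-quartile scaling. Without scaling the median of all genes was 0.14, against 0.07, and with 1 library left out it ran from 0.0 to 0.11.

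Of 29 members, 9 stayed below 0 and 4 above 0 in every alternative that tested them (MVK had no value with the filter at a mean of 5 FPKM). DHCR7, at 0.00, ran from -0.41 to 0.28, and the other 15 turned in at least 1. With 1 library left out, log2 fold changes ran from -0.49 to 0.01 for HMGCS1, -0.07 to 0.34 for GGPS1, -0.30 to 0.07 for FDFT1, -0.71 to 0.01 for CYP51A1, -0.68 to 0.24 for TM7SF2, -0.45 to 0.46 for SC5D, -0.82 to 0.36 for SREBF2, -0.13 to 0.23 for INSIG2, -0.29 to 0.39 for STARD4, -0.59 to 1.51 for SOAT1, -0.76 to 0.01 for SOAT2 and -0.26 to 0.24 for NPC2. Without both libraries SQLE had -0.12, MSMO1 0.13, HSD17B7 0.19, SOAT1 -0.78 and SOAT2 0.32. SREBF2 had 0.13 without scaling and 0.05 with the stricter filter, INSIG2 and NPC2 had -0.01 and -0.03 with upper-quartile scaling, and SC5D had -0.02 and -0.04 with limma and -0.11 with the replicate block. The cause of these turns was not tested beyond the libraries named. The lowest member count, 228, carries a counting error of 6.62%.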
